A study of Mus musculus with 60 samples.

Results

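The genes described here encode the phase II transferases of mouse liver: the glutathione S-transferases (GST, with the microsomal Mgst), the UDP-glucuronosyltransferases (UGT) and the sulfotransferases (SULT). They were taken as all rows whose symbol begins with Gsta, Gstk, Gstm, Gsto, Gstp, Gstt or Gstz and a digit, with Mgst, with Ugt1, Ugt2 or Ugt3, or with Sult and a digit. This gave 50 genes in all tables (23 GST, 19 UGT and 8 SULT) and 49 of the 14620 genes in the time course. There, 48 of them passed the filter on low values (3 or more libraries had to reach a value of 1), as did 12957 genes in all, and Ugt1a8 did not.

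RNA was sequenced from livers of 8-week-old male C57BL/6 mice after partial hepatectomy (PHx, a resection of most of the liver) or after a sham operation. Mice operated on in the morning, between 8 and 9 h, were killed 4, 8, 12, 16, 20, 24, 28 or 32 h later, which gave 24 PHx and 24 sham livers. Mice operated on at night, between 20 and 21 h, were killed after 4 or 24 h, which gave 6 PHx and 6 sham livers. The labels give 3 mice per operation and time, 60 libraries in 20 groups, and name no transgene or drug.

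Phase II enzymes join a polar group to drugs, hormones, bile pigments and products of lipid oxidation, which can then leave the cell in bile or urine. GST enzymes use glutathione, UGT enzymes a sugar carried on UDP (mostly glucuronic acid), and SULT enzymes a sulfate carried on PAPS. The liver is a main site of these reactions, and most of them run in hepatocytes. Many of their genes are known targets of the transcription factors HNF1, HNF4A and C/EBP, of the xenobiotic receptors CAR and PXR, of NRF2 and, for several, of clock output factors of the PAR bZIP family (Dbp, Tef, Hlf). The members lie in clusters of related genes. The 8 Ugt2 genes are all on chromosome 5, the 3 Gstp genes on chromosome 19 and 7 of the 8 Gstm genes on chromosome 3. All 9 Ugt1a rows come from 1 locus on chromosome 1, whose transcripts have their own first exon and share the remaining exons.

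Transcripts that share sequence can exchange reads in the authors' counting, which bears on several members. The share of a gene's 75-base stretches that also occur in another gene's transcript was 84.7% for Gsta1, 50.1% for Gstp2, 36.6% for Gsta2, 30.4% for Ugt2b5, 29.2% for Gstp1, 28% for Ugt2b38 (mostly with Ugt2b5), 27.6% for Gstm2-ps1, 21.6% for Gstm3 and 51.2 to 74.8% for the Ugt1a members. It was 0% for Gsta3, Gsta4, Gstm4, Gstz1, Gsto1, Gstk1, Ugt2b1, Ugt2b35, Ugt2b36, Sult1b1, Sult1c2, Sult1d1, Sult1e1, Mgst1 and Mgst3, 0.21% for Sult2a8 and 3.37% for Sult1a1. Values of Gsta1, Gsta2, Gstp1, Gstp2, Gstm3, Gstm2-ps1, Ugt2b5, Ugt2b38 and the Ugt1a rows are therefore uncertain as values of single genes. For some members, among them Gstp2, Ugt1a6a, Ugt1a1 and Ugt1a7c, the tables also differ. In sham livers 4 h after morning operation Ugt1a7c had log2 values of 4.21 to 4.66 in the time course, but 0.0148 to 0.916 TPM. In sham livers 24 h after morning operation Ugt1a1 had log2 values of 5.97 to 6.29 in the time course, but 148 to 297 reads. The 24 h count tables give Gstp2 21 to 49 reads in PHx and 20 to 93 reads in sham livers, and Ugt1a6a 12 to 107 reads in PHx and 22 to 108 reads in sham livers. In the time course at 24 h the log2 values of Ugt1a6a were 6.28, 5.81 and 6.21 in PHx livers, against 6.41, 6.10 and 6.57 in sham livers. The time course results of such genes thus rest on another count than the other tables hold.

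Time course values are on the deposited log2(value + 1) scale, whose underlying unit the files do not state. Libraries of the 24 h count tables held between 24.6 and 30.2 M reads each, and the PHx livers at 4 h between 24.9 and 30.6 M recovered reads. The depth of the time course is unknown. All 9 hepatocyte markers were present, with summed linear values of 53417 to 94315 in PHx and 67758 to 106554 in sham livers. At every time from 8 to 32 h the sums in PHx livers lay wholly below those in sham livers. They were 67186 to 70498 in PHx against 78582 to 85029 in sham livers at 8 h. At 24 h they were 53417 to 59932 against 67758 to 84897, and at 32 h 60693 to 74327 against 91705 to 103267. At 4 h they were higher in PHx livers, 82668 to 94315 against 69448 to 76950. Over the same libraries, the sums of 5 pancreatic acinar markers reached 5022 in one PHx liver at 4 h and 1530 in one PHx liver at 16 h. Library names in the labels fall into series. Sham livers at 4 h form one series, PHx livers at 4 h and all 24 h livers another, those at 8 to 20 h another and those at 28 and 32 h another. PHx and series cannot be told apart at 4 h. Sham 4 h replicate 1 lists 3422 genes at 0, against 768 to 1414 in the other libraries.

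In sham livers 4 h after the operation, per length in TPM, the members summed to 8529 to 10113 TPM over the 6 libraries. The sum was 9251 ± 740 TPM after morning and 9517 ± 745 TPM after night operation (SD, n = 3 each). After morning operation Ugt2 genes summed to 1792 ± 277 TPM (SD, n = 3), Gstm to 1572 ± 284, Gsta to 1495 ± 288 and Mgst to 1205 ± 149. Gstp summed to a mean of 1044, Sult2a8, the only Sult2 gene in this table, to 685, the other cytosolic GST genes to 513, Sult1 to 424, Ugt1 to 317 and Ugt3 to 203 TPM. After night operation the order was the same, from 1802 TPM for Ugt2 to 190 TPM for Ugt3, except that Sult2 (735 TPM) lay just above Gstp (733 TPM). Gsta3, which in mice conjugates aflatoxin epoxide, averaged 1317 ± 288 TPM after morning operation and 1323 ± 173 TPM after night operation. Gsta3 thus made up most of the Gsta sum, and Mgst1 (mean 1201 TPM) nearly all of the Mgst sum.

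The first question was how the 3 enzyme classes changed after PHx. Members were mostly lower in PHx than in sham livers from 8 h on. A call is an adjusted p under 0.05 in limma, fitted over all 48 libraries and adjusted over all 12957 genes. At 4 h, 7 members were called higher and 5 lower in PHx livers, where 9.32% of all genes were higher and 37.6% lower. At 8 h, 1 was higher and 26 were lower, against 6.04% and 18.7% of all genes. At 12 h, 2 were higher and 18 lower (all genes 7.57% and 8.63%), and at 16 h 1 and 19 (7.31% and 6.35%). At 20 h, 5 were higher and 18 lower (12.5% and 5.87%), at 24 h 3 and 14 (9.19% and 3.11%), at 28 h 3 and 20 (14.9% and 5.59%), and at 32 h 3 and 15 (11.8% and 3.6%). As shares of the 48 members, those called lower made up 10.4% at 4 h and 54.2% at 8 h, and between 29.2% and 41.7% from 12 to 32 h. With the libraries of 1 comparison alone, limma called fewer members, 0 higher and 11 lower at 16 h, 1 and 14 at 20 h, and 0 and 3 at 28 h.

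In bulk tissue, fewer hepatocytes and less RNA of a gene per hepatocyte cannot be told apart. Markers of other cells also moved. All 3 neutrophil markers tested (of 5 listed) were called higher in PHx livers at 4 h and 2 at 20 h, and their summed linear values over all times ran from 2.76 to 54.6 in PHx livers and from 0 to 52.5 in sham livers. At 4 h, 5 of 7 Kupffer cell markers were called lower, with sums of 152 to 199 in PHx livers against 224 to 1152 in sham livers. So were 3 of 6 endothelial markers, with sums of 72.4 to 86.7 against 121 to 127. Among all genes 37.6% were called lower then and 9.32% higher, with a median difference of -0.32 as deposited. PHx and library series cannot be told apart for these livers. Whether the lower marker calls go beyond the shift of all genes was not tested. Of 3 erythroid markers, 2 were called lower at each time from 20 to 32 h, with sums of 81.6 to 128 in PHx livers against 138 to 182 in sham livers at 20 h. Of the 9 hepatocyte markers, 3 were called lower at 8 h, 3 at 20 h and 4 at 28 h, with 0, 0 and 1 higher. The part of these shifts, and of the lower hepatocyte sums from 8 to 32 h, in the results for the transferases was not tested.

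**Figure D1:**
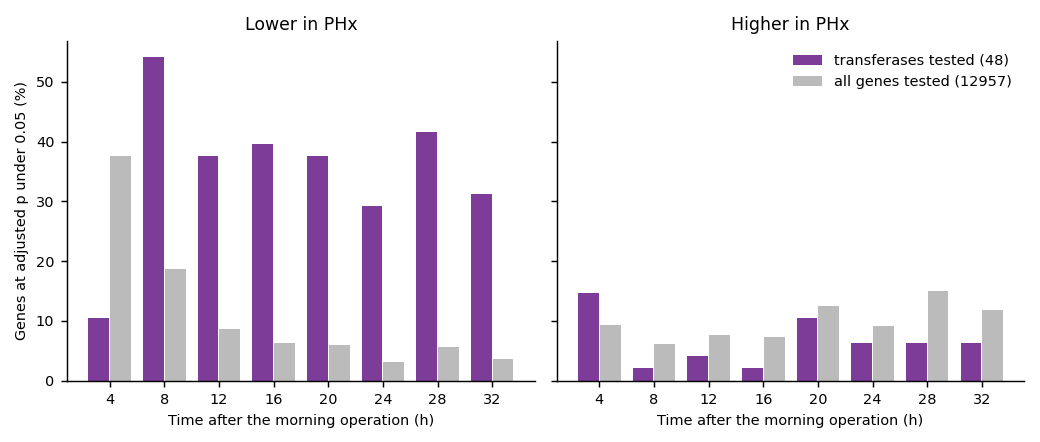
Share of the 48 transferases (purple) and of all 12957 genes tested (grey) called in PHx against sham livers, in percent, by hours after a morning operation, with genes lower in PHx on the left and higher in PHx on the right. From 8 to 32 h the purple bars on the left stand at 29.2 to 54.2%, above the grey bars at 3.11 to 18.7%, while at 4 h the order is the other way round (10.4% against 37.6%).

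The median difference of the members, PHx minus sham on the log2 scale, was -0.11, -0.89, -0.56, -0.63, -0.57, -0.28, -0.43 and -0.36 from 4 to 32 h. Over all genes tested the medians were -0.32, -0.15, -0.01, 0.05, 0.13, 0.10, 0.13 and 0.14, so the centre of all genes also shifted with time. Whether this comes from the scaling of the deposited values or from the RNA was not tested. After TMM scaling, which sets the median of all genes to within 0.02 of 0, the members called higher and lower were 15 and 1 at 4 h and 2 and 22 at 8 h. From 16 to 32 h they were 0 and 21, 5 and 23, 2 and 18, 2 and 22, and 2 and 20. The shares of all genes given above belong to the values as deposited. Those after TMM scaling are not given here. The direction at 4 h thus depends on the scaling, and from 8 h on most calls were lower under both scalings. Single libraries also moved some counts. The 17 calls at 24 h became 11 without sham replicate 2 and 10 without PHx replicate 1, the 23 calls at 28 h became 14 without PHx replicate 2, and the 18 calls at 32 h became 10 without PHx replicate 1.

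The calls of the UGT genes went in 1 direction in the values as deposited. Of 17 tested, 15 were called lower in PHx livers at 1 time or more, 0 were called higher at any time in limma, and all 57 of their calls over the 8 times were lower. Over all genes 37% were called lower at 1 time or more and never higher, 23.6% higher and never lower, and 10.9% in both directions. Of all 48 members these were 29, 7 and 4. At an unadjusted p under 0.05 there were 0 higher and 78 lower among 136 UGT tests. After TMM scaling 2 of 17 were called higher at 4 h and 0 at the other times. Not all UGT values without a call lay lower as deposited. At 32 h Ugt2b35 had 5.49, 4.87 and 4.86 in PHx livers, against 4.79, 4.68 and 4.76 in sham livers. Ugt2b34 had 8.55, 8.35 and 8.23 then, against 8.12, 7.92 and 8.08. The GST genes were mixed. Of 23, 9 were only called lower, 5 only higher, 4 lower at some times and higher at others, and 5 not called, with 54 lower and 16 higher calls in all. Of the 8 SULT genes, 5 were only called lower and 2 only higher. Within families, 7 of 8 Ugt2, 6 of 7 Ugt1 and both Ugt3 genes were only called lower, against 3 of 8 Gstm, 2 of 4 Gsta and 3 of 5 Sult1 genes. Whether the classes differ from each other was not tested. Over all 8 times together, the limma F test called 38 of 48 members (79.2%), among 65.5% of all genes. The 8 genes never called at a single time were Gsta4, Gstm1, Gstm2-ps1, Gstm5, Gstt3, Ugt1a10, Ugt2b37 and Sult2a7.

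**Figure D2:**
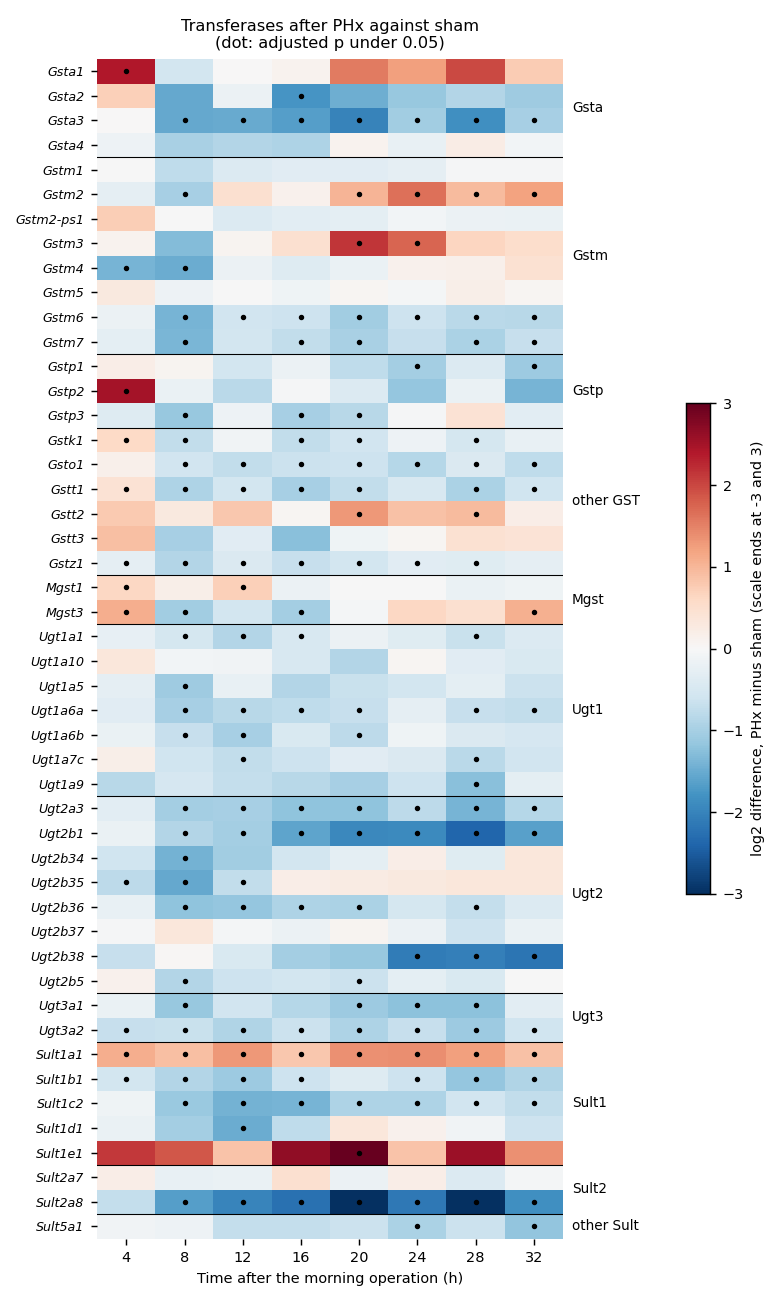
Log2 difference, PHx minus sham livers, of the 48 transferases tested (down the page, by family) at 8 times after a morning operation (across), on a colour scale that ends at -3 and 3, with a dot where the adjusted p is under 0.05. The Ugt rows are lower in PHx wherever they carry a dot, and among the Sult rows Sult2a8 stands lowest (-3.07 at 28 h) and Sult1a1 carries a higher dot at all 8 times.

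Gsta3, Ugt2b1, Sult2a8 and Sult1a1, at least 1 from each class, are described first. They were picked for this place after their values were seen, and their promoters are shown because many of the results turn on them. Sequences are from RefSeq on GRCm38.p6, each 300 bases from 250 before to 50 after the gene's start, written 5′ to 3′ on the gene's own strand. Capitals mark matches to 4 of the motifs described after them (HNF1, C/EBP, D-box and antioxidant response element), which do not overlap.
Gsta3 promoter, chr1:21240335-21240634, plus strand: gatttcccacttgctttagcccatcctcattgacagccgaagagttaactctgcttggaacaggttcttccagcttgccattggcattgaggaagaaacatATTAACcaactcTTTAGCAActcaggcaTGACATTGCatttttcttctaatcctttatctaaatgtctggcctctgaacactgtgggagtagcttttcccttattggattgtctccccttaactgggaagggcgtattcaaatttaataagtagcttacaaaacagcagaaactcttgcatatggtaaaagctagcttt
Ugt2b1 promoter, chr5:86926454-86926753, minus strand: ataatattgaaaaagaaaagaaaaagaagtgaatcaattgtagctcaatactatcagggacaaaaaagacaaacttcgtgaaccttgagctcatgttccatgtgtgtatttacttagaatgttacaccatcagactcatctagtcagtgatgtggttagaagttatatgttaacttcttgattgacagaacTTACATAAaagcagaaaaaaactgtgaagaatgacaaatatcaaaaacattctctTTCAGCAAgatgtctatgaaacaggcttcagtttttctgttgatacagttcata
Sult2a8 promoter, chr7:14446538-14446837, minus strand: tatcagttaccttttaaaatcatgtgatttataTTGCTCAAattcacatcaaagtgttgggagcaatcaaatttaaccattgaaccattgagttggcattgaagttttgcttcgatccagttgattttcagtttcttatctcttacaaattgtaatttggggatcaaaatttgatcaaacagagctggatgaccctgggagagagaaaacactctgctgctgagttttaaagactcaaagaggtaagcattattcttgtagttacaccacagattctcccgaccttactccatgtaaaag
Sult1a1 promoter, chr7:126676369-126676668, minus strand: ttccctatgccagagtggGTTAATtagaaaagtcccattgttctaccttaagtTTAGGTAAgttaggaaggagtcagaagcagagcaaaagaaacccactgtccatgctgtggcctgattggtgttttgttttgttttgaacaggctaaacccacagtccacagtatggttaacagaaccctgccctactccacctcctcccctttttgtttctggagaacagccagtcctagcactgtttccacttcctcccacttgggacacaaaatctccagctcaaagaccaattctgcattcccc
In Gsta3 the capitals are an HNF1 motif, a C/EBP motif and the core of an antioxidant response element, the site bound by NRF2. Those in Ugt2b1 are a D-box, the site of the PAR bZIP factors, and a C/EBP motif. Sult2a8 has 1 C/EBP motif in capitals, and Sult1a1 an HNF1 motif and a D-box.

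Motifs were searched on both strands of 44 member promoters and of 27025 promoters in all from the RefSeq table. Only the first listed start of each gene with a sequence of 300 bases was used, and 1 chromosome was left out. The C/EBP motif (TTGCNNAA) occurred in 11 member promoters (25%) and in 10.8% of all promoters. The HNF1 motif (GTTAAT) occurred in 9 (20.5%), against 7.2% of all, and the D-box (TTANGTAA) in 3 (6.82%; Sult1a1, Ugt1a9 and Ugt2b1), against 2.34%. The antioxidant response element core (TGACNNNGC) was in 3 (6.82%), against 12.5%, and a TATA box (TATAAA) in 6 (13.6%), against 14.2%. The E-box (CACGTG) was in 0 of 44, against 7.24%, and the DR1 element (AGGTCA repeated after 1 base) in 0 of 44, against 0.0444%. These are letter matches in a short window, and no binding was measured. Related genes can share promoter sequence, so the members are not independent of one another.

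Gsta3 fell after PHx at every time from 8 to 32 h. At 20 h its log2 values were 8.54, 10.01 and 8.57 in PHx livers, against 10.97, 10.90 and 11.26 in sham livers. All 3 PHx livers lay below all 3 sham livers, although PHx replicate 2 lay 1 unit or more above the other PHx livers. The difference was -2.01 ± 0.34 (SE; limma adjusted p = 6.09e-05), 4.01-fold lower in PHx. At 8 h the values were 9.25, 9.55 and 9.09 in PHx livers, against 10.91, 10.78 and 10.78 in sham livers, a difference of -1.53 (adjusted p = 0.000841). The smallest called differences were -1.04 at 24 h and -1.0 at 32 h.

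Ugt2b1, a glucuronosyltransferase of the family that acts on steroids and bile acids, fell at the same 7 times. At 24 h its values were 6.03, 6.60 and 6.32 in PHx livers, against 8.16, 8.39 and 8.11 in sham livers. At 28 h they were 6.44, 4.51 and 6.28 in PHx livers, against 8.03, 7.90 and 8.49 in sham livers. The groups did not overlap at either time. The difference was -0.87 ± 0.27 at 8 h (adjusted p = 0.0168; not called after TMM scaling, -0.65 with adjusted p = 0.0672) and went down to -2.39 ± 0.27 at 28 h (adjusted p = 8.81e-08), 5.25-fold lower in PHx. Without PHx 28 h replicate 2, the lowest library, it was -1.78 at 28 h.

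Sult2a8, a bile acid sulfotransferase of mouse liver, had the largest decrease of all members. At 12 h its log2 values were 7.14, 7.32 and 7.02 in PHx livers, against 9.24, 9.45 and 8.71 in sham livers. At 28 h they were 5.84, 4.14 and 5.66 in PHx livers, against 7.95, 8.90 and 7.99 in sham livers. No PHx liver reached a sham liver at either time. The difference was -1.98 at 12 h and -3.07 ± 0.39 at 28 h (adjusted p = 6.5e-07), 8.38-fold lower in PHx, and the fall was called at all 7 times from 8 to 32 h.

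Sult1a1, which sulfates phenols, moved the other way and was called higher at all 8 times. At 24 h its values were 8.79, 7.96 and 8.44 in PHx livers, against 6.97, 7.24 and 6.77 in sham livers, without overlap. The difference was 1.40 (adjusted p = 0.000377), 2.64-fold higher in PHx. At 4 h the values were 8.54, 8.37 and 8.10 in PHx livers, against 7.33, 7.18 and 7.20 in sham livers, a difference of 1.10 ± 0.26. Set against sham livers of the same clock hour a day later (28 h), the 4 h difference was 0.40 (adjusted p = 0.21) and not called. After TMM scaling the calls at 16 h (0.75, adjusted p = 0.0684) and 32 h (0.70, adjusted p = 0.104) were lost and the other 6 kept.

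**Figure D3:**
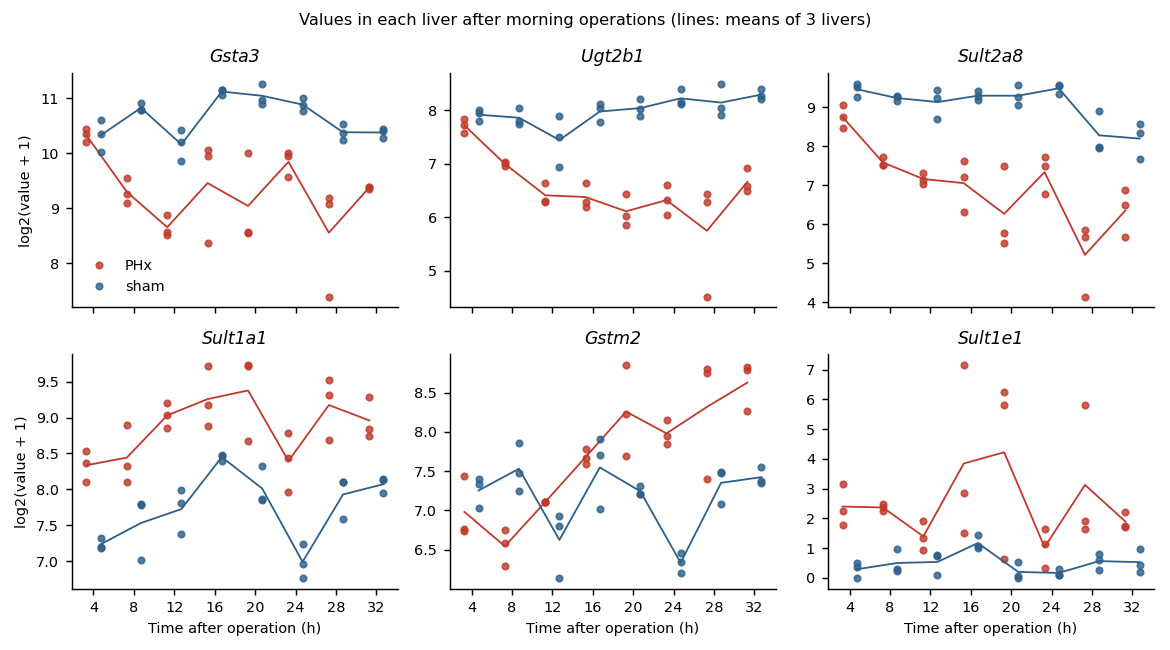
Log2(value + 1) of 6 transferases in each liver, PHx (red) left of sham (blue), at 8 times after a morning operation, with lines at the mean of 3 livers. Gsta3, Ugt2b1 and Sult2a8 lie lower in PHx livers from 8 h on and Sult1a1 higher, Gstm2 is lower at 8 h and higher from 20 h, and Sult1e1 is high in 4 single PHx livers (5.80 to 7.15).

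Among the alpha class, Gsta2 was called at 16 h alone in the time course, while edgeR on the 24 h counts also called it lower in PHx (-1.22, adjusted p = 0.0172, after morning operation, and -1.09, adjusted p = 0.0179, after night operation). At 16 h Gsta2 had 5.58, 6.65 and 5.72 in PHx livers, against 8.11, 7.12 and 8.05 in sham livers, and fell by 1.77 (limma adjusted p = 0.0486). Gsta1 was called higher at 4 h. Its values were 5.29, 5.44 and 3.12 in PHx livers, and in sham livers it was listed at 0 in replicate 1, with 3.56 and 3.10 in the others, so the groups overlapped. Without that sham library the difference was 1.29 and not called (adjusted p = 0.33). Gstp2 was like it, with 6.49, 5.19 and 6.96 in PHx livers, and in sham livers 0 in replicate 1 and 4.60 and 6.53 in the others. Without replicate 1 its difference was 0.65 (adjusted p = 0.57). Gsta4, which clears hydroxyalkenals from lipid oxidation, was not called at any time. Its largest difference was at 8 h, with 5.85, 6.30 and 5.74 in PHx livers, against 7.18, 6.64 and 7.0 in sham livers (-0.98, adjusted p = 0.0825).

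In the mu class the members went different ways. Gstm1, the most abundant of them, was called at no time. At 8 h it had 10.57, 10.91 and 10.55 in PHx livers, against 11.68, 11.36 and 11.26 in sham livers (-0.76, adjusted p = 0.0501). Gstm6 fell at all 7 times from 8 h, most at 8 h, with 5.0, 4.84 and 4.73 in PHx livers, against 6.62, 6.20 and 5.97 in sham livers (-1.40 ± 0.17, adjusted p = 7.7e-08). Gstm7 fell at 5 times, by 1.37 at 8 h and by 0.68 to 0.98 later. Gstm4 fell at 4 and 8 h alone. At 8 h it had 5.66, 5.45 and 5.28 in PHx livers, against 6.97, 7.16 and 6.70 in sham livers (-1.48 ± 0.21, adjusted p = 1.52e-06).

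Gstm2 and Gstm3 were the mu genes that rose. Gstm2 first fell at 8 h, with 6.75, 6.59 and 6.29 in PHx livers, against 7.86, 7.48 and 7.25 in sham livers (-0.99, adjusted p = 0.00664). At 24 h it had 7.95, 7.84 and 8.15 in PHx livers, against 6.34, 6.20 and 6.46 in sham livers, 3.14-fold higher in PHx (1.65, adjusted p = 9.97e-05). It was also higher at 20, 28 and 32 h, by 1.01, 0.96 and 1.20, so the sign turned between 8 and 20 h. Both signs held after TMM scaling (-0.77 at 8 h and 1.49 at 24 h). The 20 h call of Gstm2 was not kept without the 4 PHx livers of high Sult1e1, which left 1 PHx liver there. Gstm3 had 9.06, 6.25 and 8.45 in PHx livers at 20 h, against 5.42, 5.59 and 6.29 in sham livers, where 1 PHx liver lay among the sham livers. Its difference was 2.15 ± 0.60 (adjusted p = 0.01). At 24 h it was 1.75 (adjusted p = 0.0487), with 6.44, 6.91 and 7.64 in PHx livers against 5.08, 5.83 and 4.82 in sham livers. On the 24 h counts edgeR did not call Gstm3, with 1.75 (adjusted p = 0.051) after morning and 1.15 (adjusted p = 0.142) after night operation.

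Of the other cytosolic GST genes, Gstz1, the maleylacetoacetate isomerase of tyrosine breakdown, was lower at 7 times, from 4 to 28 h. At 8 h it had 8.34, 8.32 and 8.22 in PHx livers, against 9.25, 9.13 and 9.18 in sham livers (-0.89 ± 0.10, adjusted p = 5.32e-08). Its 4 h difference of -0.28 turned to 0.22 after TMM scaling. Gsto1, which can reduce dehydroascorbate, fell at all 7 times from 8 h by 0.44 to 0.85. At 24 h it had 5.52, 5.40 and 5.37 in PHx livers, against 6.22, 6.48 and 6.13 in sham livers. Gstt1, of the theta class, had a lowest, median and highest value of 4.99, 5.66 and 6.56 over 24 PHx livers, against 5.57, 6.28 and 6.83 over 24 sham livers. It was higher at 4 h (0.44) and lower at 6 later times, by up to 1.0 at 16 h. Gstk1, found in mitochondria and peroxisomes, had the same turn, with 0.60 at 4 h and -0.73 at 8 h. Set against sham livers at 28 h, the 4 h differences of Gstt1 and Gstk1 were -0.12 and -0.06. Gstt2 rose at 20 h, with 5.24, 4.36 and 5.15 in PHx livers, against 3.56, 3.77 and 3.49 in sham livers (1.31, adjusted p = 0.00535), and at 28 h (0.94). Neither call was kept without the 4 PHx livers of high Sult1e1, which left fewer PHx livers at both times.

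Gstp1 was among the most abundant members and fell late. At 32 h it had 10.33, 9.43 and 9.44 in PHx livers, against 11.06, 10.67 and 10.75 in sham livers (-1.09, adjusted p = 0.0134), and its 24 h difference was -1.03. Gstp3 fell at 8, 16 and 20 h, by 1.14, 0.99 and 0.84. The microsomal Mgst1 rose at 4 h, with 10.97, 11.10 and 11.07 in PHx livers, against 10.48, 10.34 and 10.41 in sham livers (0.63, adjusted p = 0.000379), and again at 12 h (0.72). The GST genes called higher and never lower were Mgst1, Gsta1, Gstm3, Gstp2 and Gstt2. Mgst3, a gene of low level, was higher at 4 and 32 h (1.08 and 1.07) and lower at 8 and 16 h (-1.04 and -1.01). At 4 h it had 2.12, 2.43 and 2.49 in PHx livers, and in sham livers it was listed at 0 in replicate 1, with 1.79 and 2.01 in the others. Without that library its 4 h difference was 0.45 (adjusted p = 0.177) and not called.

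The Ugt1a locus encodes the enzymes of bilirubin (Ugt1a1) and of phenols (Ugt1a6). Ugt1a1 fell at 8, 12, 16 and 28 h. At 12 h it had 5.37, 5.53 and 5.54 in PHx livers, against 6.66, 6.38 and 6.06 in sham livers (-0.89 ± 0.15, adjusted p = 6.46e-05), 1.85-fold lower in PHx. Ugt1a6a fell at 6 of 8 times by 0.68 to 0.99. Its lowest, median and highest values were 5.09, 5.96 and 6.51 over 24 PHx livers, against 6.10, 6.66 and 6.96 over 24 sham livers. In the time course Ugt1a9 fell at 28 h alone, where PHx livers had 4.65, 2.16 and 3.61 and sham livers 4.61, 4.64 and 4.92, with overlap. Without PHx replicate 2 its difference was -0.59 (adjusted p = 0.228). On counts edgeR called it lower in the morning livers at 24 h too (-0.74, adjusted p = 0.0256). Of the remaining Ugt1a rows, Ugt1a5 fell at 8 h (-1.06), Ugt1a6b at 3 times and Ugt1a7c at 2. These rows are affected by the shared exons.

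The Ugt2 genes made 28 of the lower calls. Ugt2a3 fell at all 7 times from 8 h by 0.78 to 1.40, and at 28 h it had 5.05, 3.81 and 5.31 in PHx livers, against 6.02, 6.20 and 6.15 in sham livers. Ugt2b35 fell early, at 4, 8 and 12 h. At 8 h it had 3.84, 4.18 and 3.49 in PHx livers, against 5.48, 5.46 and 5.14 in sham livers (-1.53 ± 0.24, adjusted p = 9.03e-06). Ugt2b38, which shares sequence with Ugt2b5, fell late, at 24, 28 and 32 h. At 24 h it had 2.61, 2.20 and 1.93 in PHx livers, against 4.49, 4.26 and 4.29 in sham livers (-2.10 ± 0.44, adjusted p = 0.00123), 4.29-fold lower in PHx. Ugt2b36 fell at 5 times by 0.72 to 1.21, and its median over 24 livers was 6.24 after PHx, against 7.04 in sham. Ugt2b34 and Ugt2b5, at a mean of 446 and 454 TPM in sham livers 4 h after morning operation, had fewer calls. Ugt2b34 fell at 8 h alone, with 6.75, 6.89 and 6.56 in PHx livers, against 8.16, 8.09 and 8.19 in sham livers (-1.42, adjusted p = 0.00692), and Ugt2b5 at 8 and 20 h (-0.88 and -0.64).

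The human relatives of the Ugt3 genes use sugars other than glucuronic acid. Ugt3a2 was the only member called lower at all 8 times. The difference ran from -0.60 at 32 h to -1.09 ± 0.17 at 28 h (adjusted p = 2.29e-05), where PHx livers had 6.25, 5.08 and 6.10 and sham livers 6.90, 6.88 and 6.94. Its 4 h call was lost after TMM scaling (-0.19, adjusted p = 0.375). Ugt3a1 fell at 8, 20, 24 and 28 h by 1.09 to 1.23. At 24 h it had 3.56, 3.89 and 4.50 in PHx livers, against 5.14, 5.08 and 5.42 in sham livers.

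Of the remaining sulfotransferase genes, Sult1b1, which acts on phenols and thyroid hormones, fell at 7 times. At 28 h it had 4.55, 4.54 and 4.61 in PHx livers, against 5.73, 5.73 and 5.70 in sham livers (-1.16 ± 0.16, adjusted p = 2.15e-06), and the livers of a group lay within 0.07 of each other. Sult1c2 was low throughout, with a lowest, median and highest value of 0.00, 0.20 and 0.58 over 24 PHx livers, against 0.00, 1.09 and 1.81 over 24 sham livers. It fell at all 7 times from 8 h, by 0.58 to 1.41. Sult1d1, which acts on catecholamines, fell at 12 h, with 7.06, 6.90 and 6.15 in PHx livers, against 8.41, 7.91 and 8.29 in sham livers (-1.50, adjusted p = 0.0225). Sult5a1 fell at 24 and 32 h (-0.95 and -1.18).

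Sult1e1, the oestrogen sulfotransferase, was near 0 in sham livers, and higher but uneven after PHx. At each of the 8 times all 3 PHx livers lay above all 3 sham livers. At 8 h it had 2.37, 2.25 and 2.48 in PHx livers, against 0.23, 0.29 and 0.98 in sham livers. The limma F test over all times called it (mean difference 2.04, adjusted p = 0.000595), and at single times it was called at 20 h alone. At 20 h it had 5.80, 0.63 and 6.23 in PHx livers, against 0.08, 0.00 and 0.52 in sham livers (4.02 ± 0.99, adjusted p = 0.00369). At 28 h it had 1.65, 5.82 and 1.90 in PHx livers, against 0.28, 0.61 and 0.80 in sham livers, which was not called (2.56, adjusted p = 0.0611). Of the 24 PHx livers, 4 stood above 5 (16 h replicate 2, 20 h replicates 1 and 3, and 28 h replicate 2, at 7.15, 5.80, 6.23 and 5.82), and the other 20 had a lowest, median and highest value of 0.32, 1.77 and 3.17. These 4 livers were picked after their values were seen, so other genes in them are given only as values. In the order just given, Sult1a1 had 9.71, 9.73, 9.72 and 9.52, above the highest of the other 20 PHx livers (9.31). Gsta1 had 8.19, 6.31, 5.58 and 5.78, with 5.44 as the highest of the others. Sult2a8 had 6.32, 5.53, 5.77 and 4.14, against a median of 7.41 in the others, and Gsta3 had 8.36, 8.54, 8.57 and 7.39, against a lowest value of 8.52 and a median of 9.47. Sult1d1 (9.69, 9.16, 9.48 and 7.44) and Gstm3 (8.45, 9.06, 8.45 and 4.79) lay above the highest of the others (7.95 and 7.64) in 3 of the 4.

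Several calls changed when these 4 livers were left out. Without them, limma called 21 members at 16 h (0 higher, 21 lower), 10 at 20 h (0 and 10), where 1 PHx liver is left and is assumed to vary like the other groups, and 16 at 28 h (3 and 13). Gsta3 was still called lower, by -1.12 at 16 h, -1.03 at 20 h and -1.25 at 28 h (adjusted p = 0.000613 at 20 h). Sult2a8 was at -1.88, -1.80 and -2.53 at these times, and Ugt2b1 at -1.55, -1.59 and -1.78, all called. The higher call of Sult1a1 at 16 h was lost (0.58, adjusted p = 0.15). At 20 h the higher calls of Sult1a1 (then 0.67), Gstm3 (0.48), Gstm2 and Gstt2 were lost. At 28 h those of Sult1a1 (1.07) and Gstm2 (1.42) were kept, and that of Gstt2 was lost. Sult1e1 was then at 0.43 at 20 h and 1.21 at 28 h, and it is counted among the 3 higher at 28 h. These 4 livers were left out for their Sult1e1 values, so calls of Sult1e1 without them are no test of it. Members that moved with Sult1e1, such as Sult1a1 (Pearson r = 0.84 over the group means), are weakened by this choice as well. Their lost calls are therefore no test either. With fewer PHx livers left at these times, a call can also be lost through lower power.

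Genes that supply the cosubstrates changed on their own schedules. Of 7 glutathione supply genes, 0 were called higher and 2 lower at 8 h (all genes 6.04% and 18.7%), and 4 higher and 0 lower at 20 h (12.5% and 5.87%). Gclc, the catalytic subunit of glutamate-cysteine ligase, was at -2.19 ± 0.26 at 8 h (adjusted p = 6.18e-08) and -1.24 at 12 h. Gss, glutathione synthase, rose by 0.99 to 1.37 at all 5 times from 16 to 32 h. Of 6 genes for UDP-sugars and PAPS, 0 were higher and 4 lower at both 4 and 8 h, and 0 of 6 were called in either direction at 24 h in the time course. Papss2, which makes PAPS, fell at 8, 12, 16, 20, 28 and 32 h, most at 16 h (-1.85 ± 0.21, adjusted p = 8.1e-08). Abcc2, which carries conjugates into bile, fell at 4, 8 and 12 h (-1.12, -1.09 and -0.76). Of 17 regulators, 1 was higher and 8 lower at 4 h, 0 higher and 4 lower at 8 h, and between 0 and 4 were called at each later time. At 4 h 37.6% of all genes were called lower, and the direction there depends on the scaling. The methyltransferases among 12 other conjugating enzymes went far in both directions, with Nnmt at 3.18 at 8 h and Inmt at -4.42 at 20 h. These lists were counted beside the transferases and gave no test of a link to them.

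The next question was which members followed a daily rhythm. Rhythm was tested as a 24 h cosine over the 24 livers of an operation. In sham livers 17 of 47 members tested were called rhythmic (36.2%), among 28% of all genes, and after PHx 5 of 47 (10.6%), among 8.28%. The difference of rhythm between PHx and sham was called in 0 of 48 members by limma (0.147% of all genes), with 6 members at an unadjusted p under 0.05. After TMM scaling it was called in 2, Sult1c2 (adjusted p = 0.0275) and Mgst3 (adjusted p = 0.0486), and no other tool was run. The fewer calls after PHx are therefore not shown to be a loss of rhythm in any single member by the values as deposited.

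All 4 Sult1 genes tested in sham livers were called rhythmic, with peaks between 13.2 and 15.5 h after the operation. Sult1d1 had the largest amplitude among them, 0.85 log2 units from mean to peak (adjusted p = 0.00172), a peak-to-trough ratio of 3.23. Its sham livers had 8.94, 9.36 and 9.02 at 16 h and 6.10, 7.52 and 6.60 at 28 h. Sult1a1 peaked at 14.4 h with an amplitude of 0.42, Sult1b1 at 13.2 h with 0.28 and Sult1c2 at 14.9 h with 0.47. Gsta1 had the largest amplitude of all members, 1.26 with a peak at 18.7 h, and Gsta3 had 0.35 at 19.4 h (adjusted p = 0.0127). Of the 17 peaks, 11 fell between 12 and 20 h, which for a morning operation is the evening and night. Of the 3356 genes called rhythmic in sham livers, 26.5% had their peak in this window. The livers at 8 to 20 h form 1 library series, so a peak in these hours and the series cannot be told apart. Ugt2b38 (0.76, 3.4 h) and Ugt3a1 (0.45, 3.9 h) peaked around midday, and Ugt3a2 (0.19, 7.6 h) in the afternoon. Both Mgst and both Ugt3 genes were called, but 1 of 8 Ugt2, 1 of 7 Ugt1 and 0 of 6 Gstk, Gsto, Gstt and Gstz genes. Whether the families differ in this was not tested.

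**Figure D4:**
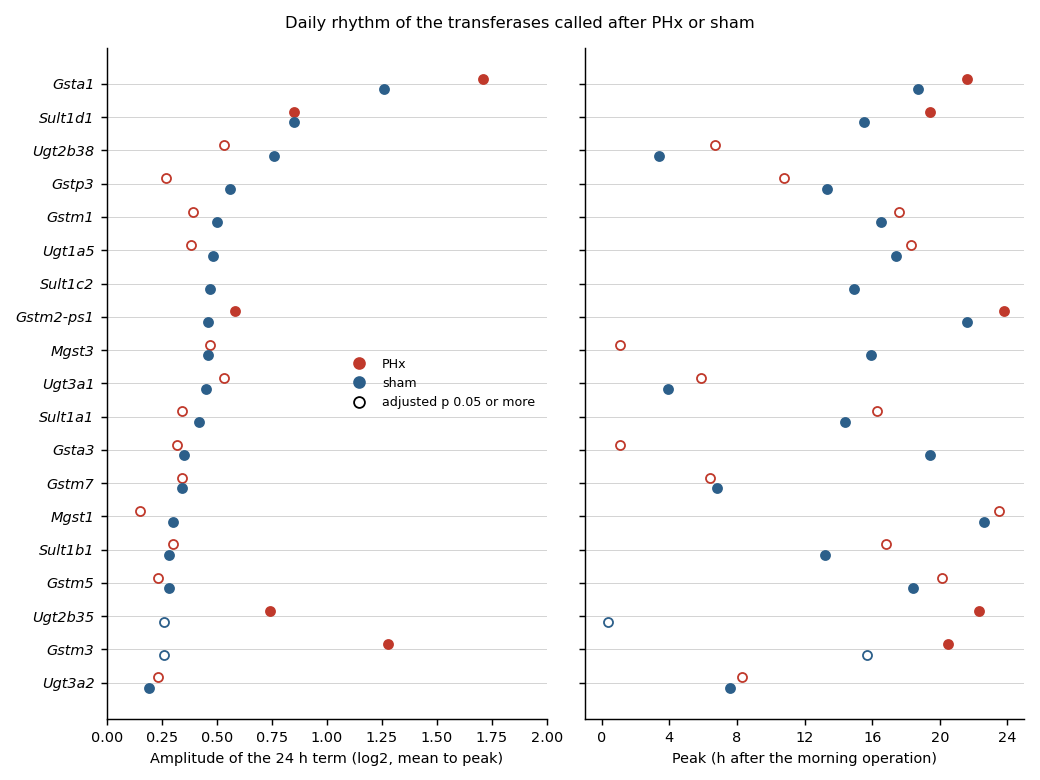
Amplitude (log2 units from mean to peak, left) and hour of the peak after the operation (right) of the 24 h cosine for the 19 members called in PHx (red, upper point) or sham livers (blue, lower point), filled where the adjusted p is under 0.05. Filled blue points range in amplitude from 0.19 for Ugt3a2 to 1.26 for Gsta1, and the 5 filled red points are Gsta1, Gstm3, Sult1d1, Ugt2b35 and Gstm2-ps1.

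After PHx, the called members were Gsta1 (amplitude 1.71, peak 21.6 h), Gstm3 (1.28, 20.5 h), Sult1d1 (0.85, 19.4 h), Ugt2b35 (0.74, 22.3 h) and Gstm2-ps1 (0.58, 23.8 h). A response that goes up and down once over the 32 h can also be called by these terms. Without the 4 livers of high Sult1e1, 8 members were called after PHx (Gstm3, Gsta1, Ugt2b36, Ugt2b5, Gstm2-ps1, Ugt2b34, Ugt2b35 and Ugt1a6b), and Sult1d1 was not among them. The counts moved with the replicates used. In sham livers 5, 3 and 1 were called without replicate 1, 2 or 3 of every time, 18 without sham 4 h replicate 1, and after PHx 0, 2 and 0. The authors' deposited table calls 11 of 49 members rhythmic in sham (13.8% of all genes) and 5 after PHx (7.95%), and all 11 and all 5 were among the calls given here.

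Livers at the same clock hour a day apart were compared to separate a course over days from a daily one. In sham livers 8 of 48 members differed between 28 and 4 h (3 higher and 5 lower at 28 h), among 20.4% of all genes, and 3 between 32 and 8 h (1 and 2), among 13.6%. Of all genes, 1195 were higher and 1452 lower at 28 than at 4 h, and 666 and 1096 at 32 than at 8 h. After TMM scaling the first pair of member counts was 5 and 4. The 8 calls became 5 without sham 4 h replicate 1 and 3 without sham 28 h replicate 1. Gstm1 had 9.89, 9.62 and 9.73 in sham livers at 28 h, against 10.89, 10.72 and 10.71 at 4 h, and was lower (-1.02, adjusted p = 0.0098). It was also lower at 32 than at 8 h (-1.48, adjusted p = 0.000432). Sult2a8 was lower in sham livers at 28 h than at 4 h as well (-1.18, adjusted p = 0.0271). The times carry different library series, so day and series cannot be told apart.

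After PHx 25 of 48 members differed between 28 and 4 h (5 higher and 20 lower at 28 h), among 55.9% of all genes, and 21 between 32 and 8 h (15 and 6), among 39.1%. Of all genes, 6011 were higher and 1232 lower at 28 than at 4 h, and 4100 and 971 at 32 than at 8 h. The median of all genes moved by 0.45 and 0.28 in these comparisons. After TMM scaling the counts of members were 2 and 33, and 9 and 11. Sult2a8 had 5.84, 4.14 and 5.66 in PHx livers at 28 h, and its mean was 5.21 then, against 8.75 at 4 h (-3.54 ± 0.39, adjusted p = 2.37e-09). Ugt2b38 (-2.28), Gsta2 (-2.11), Ugt2b1 (-1.97), Gsta3 (-1.77) and Ugt2a3 (-1.69) were also lower at 28 h, and Gstp3 (1.63) and Gstm2 (1.33) higher. Between 32 and 8 h, Gstm2 (2.08, adjusted p = 3.11e-07), Ugt2b34 (1.64) and Mgst3 (1.61) were higher, and Ugt2b38 (-2.22) and Gstp1 (-1.43) lower.

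The last question was whether the hour of operation matters. After PHx, morning and night livers at 24 h differed in 0 of 45 members by edgeR (0.332% of all genes), with 11 members at an unadjusted p under 0.05. DESeq2 called 4, namely Gsta3 (1.08) and Ugt1a9 (0.98) higher and Gstt3 (-1.33) and Sult1d1 (-0.71) lower after morning operation. Without PHx night replicate 2, edgeR called 6. In sham livers at 24 h, 2 of 45 were called, both lower after morning operation, among 5.35% of all genes. Gstt2 had 357, 440 and 349 reads after morning operation, against 1293, 1275 and 919 after night operation (-1.73 ± 0.17, adjusted p = 0.000242). Sult1d1 had 3433, 3627 and 4112 reads after morning operation, against 7572, 5988 and 4448 after night operation (-0.81 ± 0.16, adjusted p = 0.015). With replicates paired by number, edgeR called 3 members, with Gstm3 added (-0.80, adjusted p = 0.0241). Without sham night replicate 3, 8 members were called, and 1 was called when some other single libraries were left out. These livers differ in clock hour at death as well as at operation.

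At 4 h, Sult1d1 was the 1 member of 42 that differed after PHx, among 0.853% of all genes by limma. Its deposited values, scaled to equal library size, were 66.7, 73.1 and 74.1 after morning operation, against 110, 127 and 140 after night operation (-0.81 ± 0.13, adjusted p = 0.0379). The edgeR test on recovered reads gave -0.82 (adjusted p = 0.0373) and the same 1 call. The call was lost with any single library left out. In sham livers at 4 h, limma called 0 of 45 members and 0% of all genes, with 8 members and 667 of 11391 genes at an unadjusted p under 0.05, and no other tool was run. There Sult1d1 had 80.5, 119 and 344 TPM after morning operation, against 175, 172 and 105 TPM after night operation, with overlap.

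The PHx response itself was compared between operations at 24 h on counts. After morning operation 3 of 44 members were called higher and 16 lower in PHx than in sham livers by edgeR, among 6.69% and 5.11% of all genes, with a median log2 fold change of -0.44. After night operation 2 were higher and 19 lower, among 11.9% and 11.3%, with a median of -0.66. The morning livers are those of the 24 h time point above, so that count is not a repeat. The night livers are separate animals. Of the called members, 18 were called in the same direction in both, 94.7% of the morning and 85.7% of the night calls. The overlap over all genes was not counted, so whether this is particular to the members is unknown. Both comparisons also come from the same fit. By class, the night calls were 1 higher and 8 lower of 23 GST, 0 and 9 of 15 UGT, and 1 and 2 of 6 SULT genes.

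After morning operation Gsta3 had 601, 806 and 852 CPM in PHx livers, against 1681, 1604 and 1802 CPM in sham livers. After night operation it had 313, 467 and 285 CPM in PHx livers, against 1480, 1309 and 1331 CPM in sham livers. All PHx livers lay below all sham livers in both, with log2 folds of -1.17 ± 0.20 after morning (adjusted p = 0.00149) and -1.95 ± 0.20 after night operation (adjusted p = 1.87e-05). Sult2a8 was at a log2 fold of -2.15 after morning operation and -2.71 after night operation, where it had 111, 332 and 74 CPM in PHx livers, against 1043, 1071 and 1271 CPM in sham livers. Ugt2b1 was at -2.01 after morning and -1.86 after night operation, Ugt2b38 at -2.28 and -2.09, and Gstp1 at -0.97 and -1.50. The members that rose in both were Sult1a1 (1.33 after morning and 1.25 after night operation) and Gstm2 (1.54 and 1.09). On counts Ugt2b5 (-0.93) and Ugt1a5 (-1.55) were called lower after night operation alone. Gstz1 was called lower after night operation (-0.50, adjusted p = 0.0383) and not after morning operation (-0.43, adjusted p = 0.107), where limma on the time course values of the same livers did call it (-0.33). Gstt2 was called higher after morning operation alone (0.92, adjusted p = 0.00934; night -0.23, adjusted p = 0.466).

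The difference of the response between morning and night operation was called in 0 of 44 members by edgeR (0.489% of all genes), with 6 at an unadjusted p under 0.05. DESeq2 called 2, Gstt2 (1.15) and Gstm6 (0.98), and edgeR called 1 without PHx night replicate 2. The larger folds of Gsta3, Gstm6 (-0.57 after morning and -1.55 after night operation) and Ugt1a9 (-0.74 and -1.65) at night are thus not separated from the morning ones by the edgeR test. Sult1e1 was again uneven, with 86, 4 and 42 reads in PHx livers after morning operation, against 843, 24 and 2580 after night operation (-4.49 ± 1.24, adjusted p = 0.226).

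**Figure D5:**
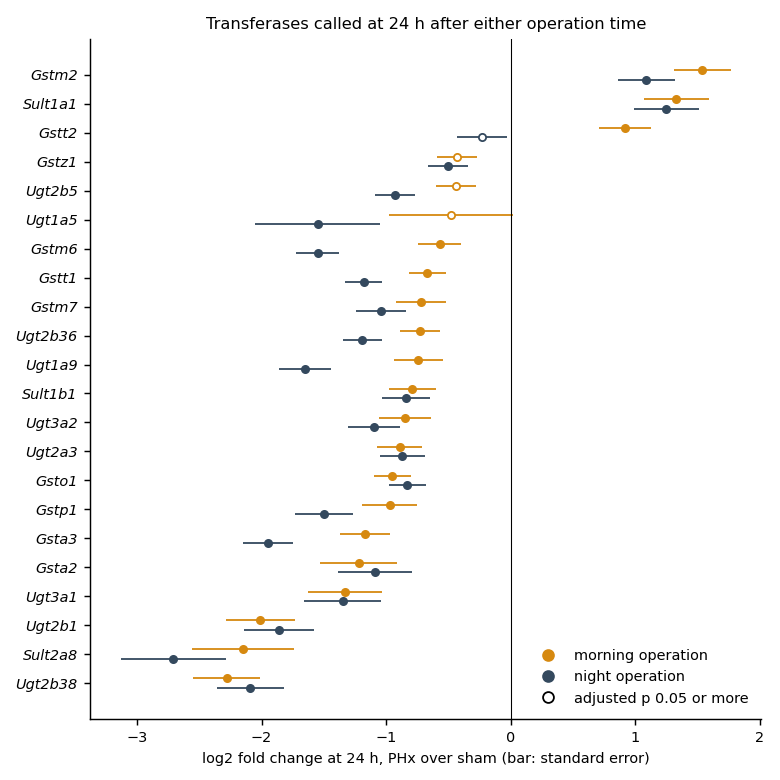
Log2 fold change, PHx over sham livers, 24 h after morning (orange, upper point) and night operation (dark, lower point) for 22 transferases, with bars of 1 SE and open points where the adjusted p is not under 0.05. Most points of both operations lie left of 0, with Sult2a8 at -2.15 and -2.71, and Sult1a1 and Gstm2 lie right of 0 after both.

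Across the 16 group means of the time course, the members whose log2 values were most like those of Gsta3 were Ugt2a3 (Pearson r = 0.92), Sult2a8 (0.90) and Ugt2b1 (0.89), and the least like was Sult1a1 (-0.76). Sult1e1 was most like Sult1a1 (0.84) and least like Ugt3a2 (-0.83). These values describe groups that share operation, time and library series.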

How the data were processed

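The members and the gene lists were chosen with earlier results of these data known. Per the submitters' processing notes fastp 0.20.0 and HISAT2 2.1.0 were used on the reads. No read counter or annotation is given in the sources used here. The polyA libraries were made with a kit whose use of strand is not stated, and sequenced on a NovaSeq instrument, per the labels' protocols.

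The time course tables hold log2(value + 1), as the values deposited by the authors show, with a fraction (the authors' probability of a rhythm) and a score (their peak time) per gene. The 24 h tables hold a raw count per gene, with low rows removed by the authors. For PHx at 4 h the columns carry the heading TPM, but the deposited signal equals each gene's read count multiplied by a factor of that gene, and 100% of its values for 11724 genes came out as whole reads within 0.01. For sham at 4 h the values are TPM, per the file headers. Another 6 columns match no labelled sample and were not used.

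Here limma 3.58.1 (R 4.3.3; 1 mean per group over 48 libraries, trended two-sided eBayes) tested the time course, and cosine and sine terms of 24 h tested rhythm. For the 24 h counts edgeR 4.0.16 was the main tool (quasi-likelihood after TMM and filterByExpr), with DESeq2 1.42.0 as an alternative. For the 4 h PHx table limma on TMM-scaled log2(value + 1) of 8325 genes was used in place of the planned edgeR test on recovered reads, which was run beside it. P-values were adjusted with Benjamini-Hochberg over all genes of a comparison. Calls were made at 0.05 on the adjusted p, whatever the fold. Differences on log2(value + 1) understate changes of low genes. The labels give separate mice, and p-values measure the spread between these livers. Named members follow a rule on family, level and size of change, or a fixed list, and the exceptions are named where they occur. Scripts were tested on simulated data.

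Replicate numbers paired the samples by the correlation of their deviations in 1 comparison alone, sham morning against night at 24 h (0.310, 0.162 and 0.515 for the 3 numbers), and the labels give no reason for it. Alternatives were TMM scaling, a pseudocount of 0.1, no filter, the libraries of a comparison alone, the replicate block, other tools and leaving out replicates. Leaving out the 4 PHx livers of high Sult1e1, sham 4 h replicate 1, and the edgeR test on recovered reads were added after the data were seen. Python 3.11.15 drew the plots (matplotlib 3.10.9) and tables (pandas 2.3.3 with numpy 2.4.6).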

Additional observations from a re-analysis of the deposited data

How the results depend on the processing

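Of 320 member results called in a comparison, 160 were called under every alternative run for them. Counts under the alternatives are given without the share of all genes, so they do not show what is particular to the members. With the libraries of a comparison alone, limma called 11 members at 16 h, 15 at 20 h and 3 at 28 h, against 20, 23 and 23. Without the 4 PHx livers of high Sult1e1, 10 were called at 20 h and 8 for rhythm after PHx. After TMM scaling the difference of rhythm was called in 2. DESeq2 called 4 between morning and night after PHx and 4 in sham at 24 h, and 2 for the response by operation time. With replicates paired by number, 3 members were called between morning and night in sham at 24 h, and 0 after PHx at 4 h. No paired analysis was possible for sham livers at 4 h because the columns carry no numbers that match the labels. Reversed values were 0.22 for Gstz1 at 4 h and -0.01 for Ugt2b35 (PHx 28 against 4 h) after TMM scaling, and, against sham livers at 28 h in place of 4 h, -0.06 for Gstk1, -0.10 for Gstp2 and -0.12 for Gstt1 at 4 h. The causes of these shifts were not tested.

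Leaving out 1 replicate at a time gave 8 to 13 calls for PHx against sham at 4 h, 25 to 27 at 8 h, 16 to 23 at 12 h, 14 to 18 at 16 h, 16 to 25 at 20 h, 10 to 15 at 24 h (13 to 17 on counts, 19 to 22 at night), 14 to 24 at 28 h, 10 to 15 at 32 h and 31 to 41 over all times. It gave 1 to 18 for rhythm in sham, 0 to 2 after PHx and 0 for their difference. For PHx it gave 21 to 27 (28 against 4 h) and 17 to 20 (32 against 8 h), and for sham 3 to 9 and 2 to 3. Between morning and night it gave 0 to 6 after PHx and 1 to 8 in sham at 24 h, 0 after PHx and 0 in sham at 4 h, and 0 to 1 for the response by operation time. The depth behind the time course values is unknown, and 3 livers per group limit every comparison.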
